A study of Rattus norvegicus with 12 samples.

Results

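The prostaglandin genes of the rat kidney were followed through 12 single-colour microarrays. The set consisted of 10 genes chosen by name: the cyclooxygenases Ptgs1 and Ptgs2, the terminal synthases Ptges and Ptgds, the receptors Ptger1, Ptger2, Ptger3, Ptger4 and Ptgfr, and the breakdown enzyme Hpgd. They are 10 of 26442 gene or transcript names on the array, and all 10 had a probe. Ptgs1 and Ptger3 had 2 probes each, which gave 12 probes.

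The animals were female F344 rats aged 10 weeks, and the tissue was the left kidney. Ischaemia-reperfusion injury (IRI), in which the blood supply of a kidney is blocked and then restored, was applied to the left kidney alone, and 4 rats were killed on day 3 and 4 others on day 7. The 4 control rats had a sham operation and were killed on day 7, so day 3 had no sham group of its own. The sources used here do not state what was done to the right kidney, and each array stands for 1 rat.

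Prostaglandins are lipids made on demand from arachidonic acid. A cyclooxygenase turns arachidonic acid into the unstable prostaglandin H2, and a terminal synthase then makes one product of it, such as prostaglandin E2 or D2. The products leave the cell, act on receptors at the surface of the same or nearby cells, and are taken up again and inactivated. In the kidney, prostaglandin E2 is known as a product of the collecting duct and the medullary interstitium that acts on blood flow and on the handling of salt and water.

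Levels were the processed spot intensity divided by the 75th percentile of its array, on the log2 scale, so that 0 is the array's 75th percentile and a step of 1 is a doubling. Each probe binds with its own strength, so levels are set against each other only within a probe. The 75th percentile itself differed between groups and lay between 225 and 394 intensity units in the sham kidneys, between 665 and 743 at day 3 and between 422 and 562 at day 7. Spots well above background made up 65.0% to 80.6% of each array. Scaling to the total signal instead moved the median difference of all probes from sham by more than 0.1, from -0.11 to 0.17 at day 3 and from -0.06 to 0.17 at day 7. For cell type markers, a summed level is the log2 of the added unlogged levels of a list, each gene by its brightest probe. The brightest markers weigh most in it, and it is compared only between groups. The markers of the proximal tubule, which makes up most of the kidney cortex, had a summed level of 7.81 to 7.90 in the sham kidneys, and none of the 5 was at background on every array.

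The probes whose results are described first are shown here as the letters of the array design, with their positions on rat build rn4. The Ptgs2 probe lies at chr13:64432919-64432978 on the + strand and ends at the end of the COX-2 reading frame, whose stop codon is in capitals. The probe of Ptgs1 that was above background lies at chr3:15350683-15350742 on the + strand, and the second Ptgs1 probe at chr3:15365115-15365174, with 14372 bases between them. The Ptges probe lies at chr3:9946741-9946800 and the Hpgd probe at chr16:37420061-37420120, both on the - strand. The Ptger3 probes lie at chr2:255719678-255719737 and chr2:255759143-255759202 on the + strand, 39405 bases apart, and are called upstream and downstream in that order. The first 30 of the 60 bases are printed for all but the first 2 lines.
Ptgs2: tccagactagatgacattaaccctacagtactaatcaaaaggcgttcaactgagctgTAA
Ptgs1, first probe: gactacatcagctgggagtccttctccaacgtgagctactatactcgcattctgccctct
Ptgs1, second probe: aacattcccaacttgaatgtctagaatgtg
Ptges: tgtgcaaatgtgtgtcttagccttttggga
Hpgd: aatggactccaaaacactcaggaatgaaac
Ptger3, upstream probe: tcaatcagatgtcagtagagcaatgcaaga
Ptger3, downstream probe: atcttctttcggcctcatattttaagtttt

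Of the 12 probes, 8 were bright enough to test, meaning that in at least 1 group every array read them well above background, and 6 of these were above background on all 12 arrays. The 8 stand for 7 genes. Differences were tested with limma across 21071 probes, with Benjamini-Hochberg adjustment and a threshold of 0.05. Day 3 against sham, 1 of the 8 member probes passed the test, where 56.5% of all probes tested passed it. Day 7 against sham, 2 of 8 passed, where 18.3% of all probes did, and day 7 against day 3, 3 of 8 passed, where 30.8% did. Each of these 6 differences was an increase at the later or injured stage, and in each the kidneys of one group all lay above those of the other. Such a full separation was found for 50.9%, 21.3% and 35.6% of all probes tested, in the same order of comparisons. The median difference of the 8 probes was -0.13 day 3 against sham, 0.26 day 7 against sham and 0.72 day 7 against day 3, beside -0.11, -0.06 and 0.03 for all probes tested. The comparisons with sham share the 4 sham kidneys.

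**Figure D1:**
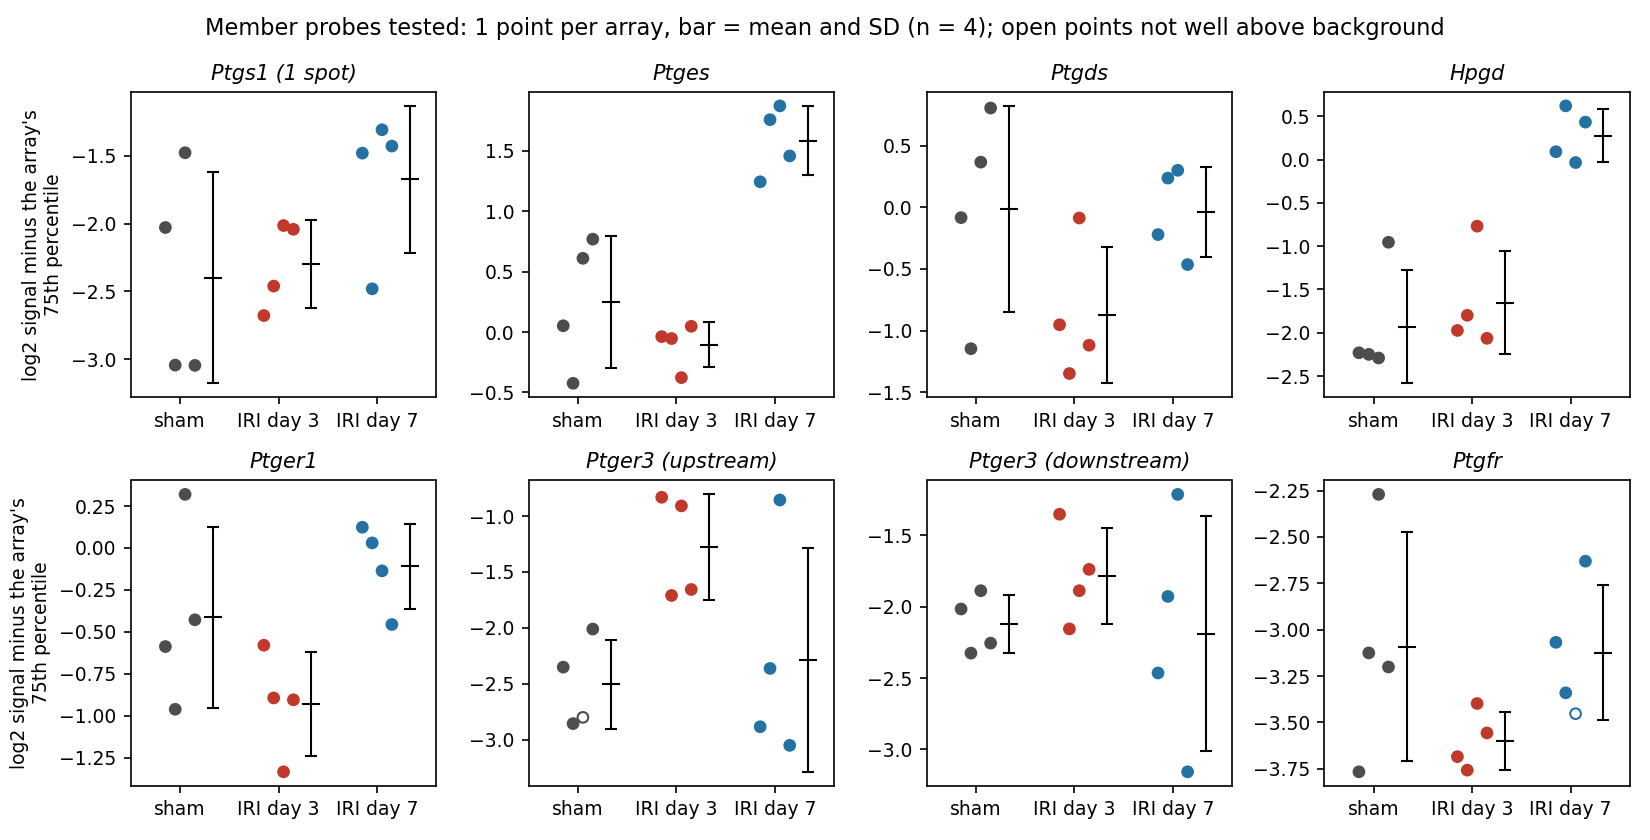
Level of each member probe tested (log2 signal minus the array's 75th percentile, vertical axis with its own range in each panel) in the 4 sham, 4 day 3 and 4 day 7 kidneys, with 1 point per array and the mean and SD beside them. The day 7 points of Ptges and Hpgd lie above every sham and day 3 point, and the day 3 points of the upstream Ptger3 probe lie above every sham point.

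The cyclooxygenases carry out the first committed step. Ptgs1 encodes COX-1, the constitutive form, and Ptgs2 encodes COX-2, the inducible form, which in the kidney is known from the macula densa and the medullary interstitium. No difference of the first Ptgs1 probe passed the test, while the second Ptgs1 probe and the Ptgs2 probe were too dim to test. The first Ptgs1 probe was above background on all 12 arrays. Its log2 levels were -2.03, -3.04, -1.48 and -3.04 in the sham kidneys, -2.68, -2.46, -2.01 and -2.04 at day 3 and -1.48, -2.48, -1.31 and -1.43 at day 7. The sham values overlapped both injured groups, 2 day 7 kidneys lay above every sham kidney, and 3 of the 4 day 7 kidneys lay above every day 3 kidney. The difference was 0.10 ± 0.37 (SE, n = 4 per group) day 3 against sham (limma adjusted p 0.833), with a sign that turned when sham replicate 2 or 4 was left out (-0.11 and -0.12). It was 0.72 ± 0.37 day 7 against sham (limma adjusted p 0.194), and day 7 against day 3 it was 0.62 ± 0.37 (limma adjusted p 0.213).

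The second Ptgs1 probe was dim and was not tested. It was printed as 10 spots on each array, whose log2 signals had an SD between 0.08 and 0.53 within an array after 6 outlier spots on 4 arrays were set aside. It was well above background on 2 day 3 arrays only, with unscaled processed signals of 28.4 and 39.0 intensity units. The sham kidneys gave 4.21, 4.57, 5.77 and 4.57 units and the day 7 kidneys 13.1, 7.54, 15.9 and 8.41 units. The other day 3 kidneys gave 18.0 and 10.1 units.

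The Ptgs2 probe was well above background on 1 array of each group, so no level was tested. Its unscaled signals were 46.8, 19.3, 19.6 and 5.03 intensity units in the sham kidneys, 18.1, 22.9, 16.5 and 29.4 at day 3 and 67.3, 14.8, 23.1 and 27.2 at day 7. The groups overlapped throughout, and the highest value of each group was the only one well above background. Nos1, the marker of the macula densa, was also too dim to test.

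**Figure D2:**
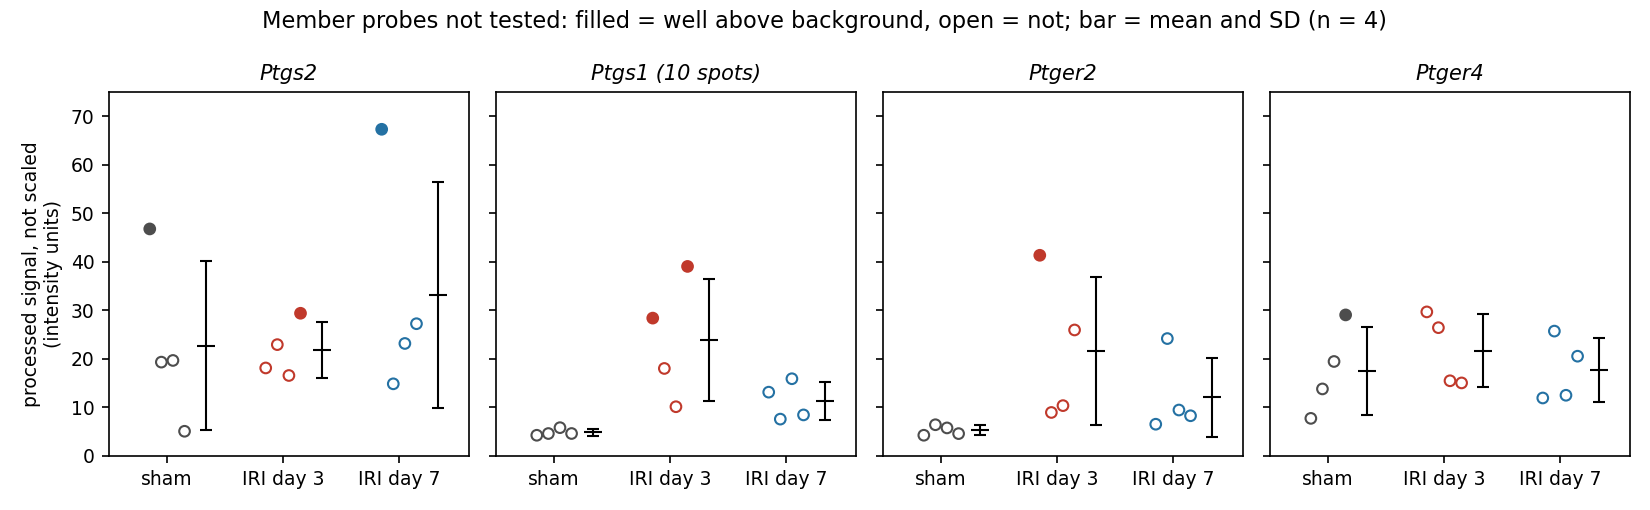
Unscaled processed signal (intensity units, vertical axis from 0) of the 4 member probes that were too dim to test, in the sham, day 3 and day 7 kidneys, with filled points well above background and the mean and SD beside them. Of the 48 points, 7 are filled, and no panel has more than 2 filled points in a group. The brightness of each array, which was higher in both injured groups, is not removed from these signals.

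The terminal synthases give prostaglandin H2 its final form. Ptges, the inducible microsomal prostaglandin E synthase, was higher at day 7 than in both other groups. The Ptges levels on the log2 scale were 0.05, -0.42, 0.61 and 0.77 in the sham kidneys, -0.04, -0.05, -0.38 and 0.05 at day 3 and 1.24, 1.76, 1.87 and 1.46 at day 7. All 4 day 7 kidneys lay above all 8 others, and the sham and day 3 kidneys overlapped. Ptges rose by 1.33 ± 0.25 (SE) day 7 against sham, a 2.52-fold difference (limma adjusted p 0.00505), and by 1.69 ± 0.25 day 7 against day 3, a 3.22-fold difference (limma adjusted p 0.00126). Day 3 against sham it differed by -0.36 ± 0.25 (limma adjusted p 0.243), and by -0.58 (limma adjusted p 0.0399) without sham replicate 2. Within the 3 array slides, each of which held all groups, the difference day 7 against sham was 1.35, 2.30 and 0.74, so the size varied and the direction did not.

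Ptgds, the lipocalin-type prostaglandin D synthase, had no difference that passed the test. The log2 levels of Ptgds were -0.08, -1.15, 0.37 and 0.81 in the sham kidneys, -0.95, -1.35, -0.09 and -1.12 at day 3 and -0.22, 0.24, 0.30 and -0.46 at day 7. The day 3 kidneys were low except replicate 3, and the sham kidneys covered the range of both injured groups but for 1 day 3 kidney. The difference day 3 against sham was -0.86 ± 0.39 (SE, limma adjusted p 0.0789). It was -1.24 without sham replicate 2 (limma adjusted p 0.00745) and -1.12 without day 3 replicate 3 (limma adjusted p 0.0308). It was -0.02 ± 0.39 day 7 against sham (limma adjusted p 0.976), and day 7 against day 3 it was 0.84 ± 0.39 (limma adjusted p 0.12).

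Hpgd encodes 15-hydroxyprostaglandin dehydrogenase, the enzyme that inactivates prostaglandin E2 and F2-alpha, and it had the largest difference of the 8 member probes. In log2 units Hpgd stood at -2.23, -2.25, -2.29 and -0.95 in the sham kidneys, -1.97, -1.80, -0.77 and -2.06 at day 3 and 0.09, 0.62, -0.03 and 0.43 at day 7. All day 7 kidneys lay above all others, while 1 sham and 1 day 3 kidney stood above the rest of their groups. Hpgd rose by 2.21 ± 0.35 (SE) day 7 against sham, a 4.63-fold difference (limma adjusted p 0.00213), and by 1.93 ± 0.35 day 7 against day 3, a 3.81-fold difference (limma adjusted p 0.00293). Day 3 against sham it differed by 0.28 ± 0.35 (limma adjusted p 0.51). The difference day 7 against sham was 2.21, 2.22 and 2.56 within the 3 slides. With normexp background correction in place of the scanner's own, it was 1.16 and still passed the test (limma adjusted p 0.000595), and the difference day 7 against day 3 was 1.06 (limma adjusted p 0.000724).

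**Figure D3:**
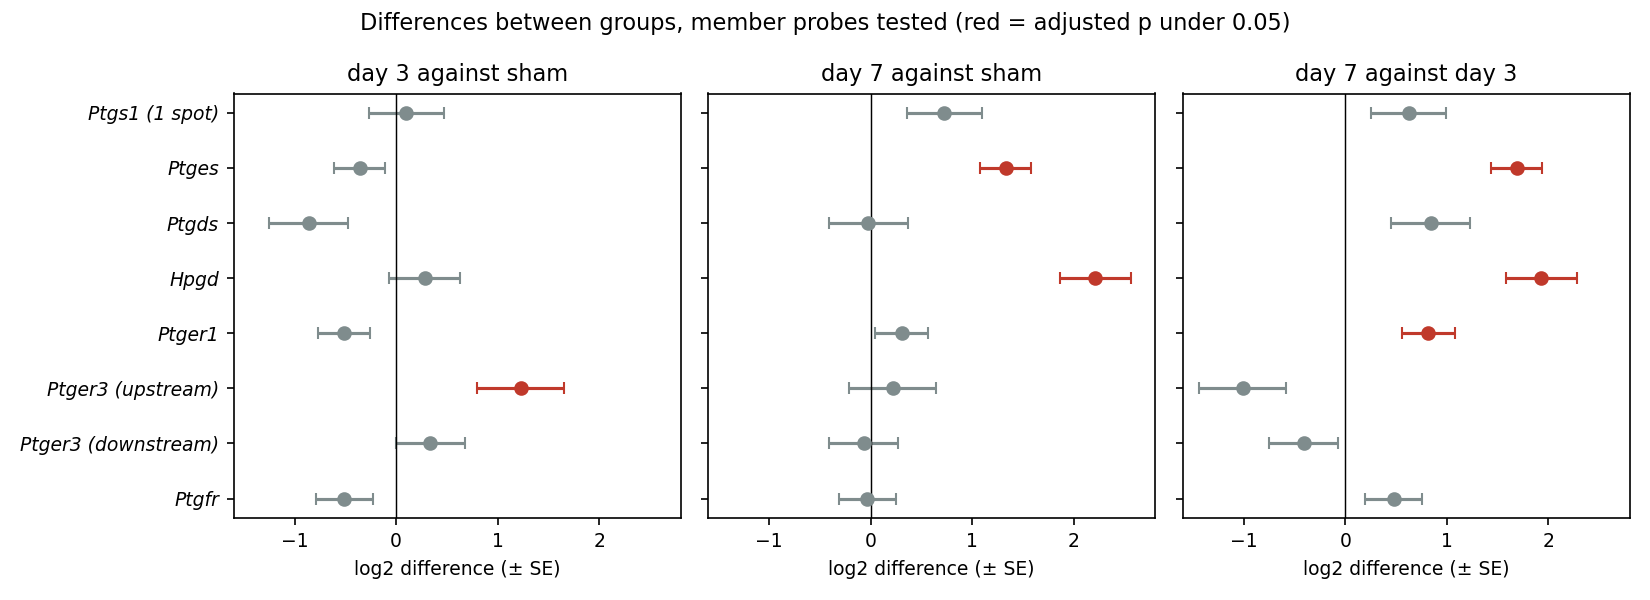
Differences between groups (log2, horizontal axis) of the 8 member probes tested, with their SE, for day 3 against sham, day 7 against sham and day 7 against day 3. The red points passed the test, and they are the upstream Ptger3 probe (1.23) in the first panel, Ptges (1.33) and Hpgd (2.21) in the second, and Ptges (1.69), Hpgd (1.93) and Ptger1 (0.82) in the third.

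The synthase Ptges and the dehydrogenase Hpgd, which make and break down the same product, were thus both higher at day 7 than in sham kidneys. Of all probes tested, 8.05% were called higher day 7 against sham and 17.1% day 7 against day 3. In whole-kidney RNA, a change in the number of cells of a type and a change in RNA per cell cannot be told apart. The 5 markers of the principal cell of the collecting duct (Aqp2, Aqp3, Avpr2, Scnn1b and Scnn1g) were all lower day 3 against sham and all higher day 7 against day 3, and day 7 against sham they differed by 0.38 to 0.87, with limma adjusted p between 0.0643 and 0.385. Their summed level was between 3.57 and 4.52 in the sham kidneys, between 1.99 and 2.88 at day 3 and between 4.53 and 5.05 at day 7. This course was not particular to the principal cell. The 2 distal convoluted tubule markers tested and the 3 intercalated cell markers were also all lower day 3 against sham and all higher day 7 against day 3. Day 7 against sham, Calb1 of the distal tubule was higher (1.58, limma adjusted p 0.0105) and Slc4a1 of the intercalated cell lower (-0.82, limma adjusted p 0.0445). The 5 fibroblast markers were higher in both injured groups, with a summed level between 3.80 and 4.70 in sham, between 6.24 and 6.90 at day 3 and between 5.75 and 6.17 at day 7. Of the 7 macrophage markers, each taken by its brightest probe, 5 were tested. Of these, 3 (Adgre1, Cd68 and Lyz2) were higher day 3 against sham and 1 (Lyz2) day 7 against sham. Adgre1 was well above background on 2 sham arrays and entered the test only through its day 3 arrays. Its call (limma adjusted p 0.0167) thus follows in part from the filter. The summed macrophage levels were 1.90 to 2.32, 3.59 to 3.73 and 2.83 to 3.30 in sham, day 3 and day 7. Lyz2 alone had mean levels of 1.41, 3.38 and 2.71, so these sums mostly follow Lyz2. A dimmer probe of Csf1r was also higher, by 1.21 at day 3 (limma adjusted p 0.00133) and 0.77 at day 7 (limma adjusted p 0.0467), where its brightest probe was not called. Of the 5 proximal tubule markers 4 were lower day 3 against sham, and their summed level, 7.81 or more in every sham kidney, was between 4.58 and 6.18 at day 3 and between 6.49 and 7.45 at day 7. The part of these markers in the results was not tested.

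The promoters of Ptges and Hpgd are shown because both genes were higher at day 7. The sequences are the 250 bases before the RefSeq start on build GRCr8, read along the gene, at chr3:34586988-34587237 for Ptges and chr16:39034832-39035081 for Hpgd, both on the - strand. Matches to the motifs below are in capitals.
Ptges: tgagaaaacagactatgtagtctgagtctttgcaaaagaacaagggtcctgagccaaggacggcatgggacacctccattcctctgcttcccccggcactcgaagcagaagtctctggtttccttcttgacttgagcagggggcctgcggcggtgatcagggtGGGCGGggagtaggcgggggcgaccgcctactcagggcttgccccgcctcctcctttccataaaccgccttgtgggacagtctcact
Hpgd: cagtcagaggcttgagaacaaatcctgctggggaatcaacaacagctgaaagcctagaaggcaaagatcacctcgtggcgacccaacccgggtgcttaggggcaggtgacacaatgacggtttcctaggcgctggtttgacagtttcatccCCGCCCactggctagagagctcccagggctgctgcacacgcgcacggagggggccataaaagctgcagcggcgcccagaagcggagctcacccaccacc

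Each window held a single match to the GC box (GGGCGG), which began 87 bases before the start of Ptges on its own strand and 99 bases before the start of Hpgd on the other strand. The 6 motifs were searched on both strands in windows of 250 bases before to 50 after the start, in all 10 members and in all 33469 RefSeq promoters. The GC box was in 6 of the 10 member windows (Ptges, Hpgd, Ptgds, Ptgs2, Ptger1 and Ptger3) and in 33.1% of all windows. The E-box CACGTG was in the Hpgd and Ptgs2 windows and in 6.42% of all windows. The CRE (TGACGTCA), the AP-1 motif (TGANTCA), the string searched for NF-kB (GGGNNTTCC) and the TATA box (TATAAA) were in none of the 10 member windows. They were in 1.83%, 7.33%, 5.92% and 14.2% of all windows. Sites of another spelling or length, such as longer NF-kB sites, were not searched, so their absence is not shown. A match is a run of letters, and no motif searched overlapped another in the printed windows.

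The receptors of prostaglandin E2 are EP1 to EP4, encoded by Ptger1 to Ptger4. EP1 acts through calcium, EP3 mainly lowers cyclic AMP, and EP2 and EP4 raise it. Ptger3, whose product in the kidney is known from the thick ascending limb and the collecting duct, was the only member with a probe that passed the test day 3 against sham. The log2 levels of its upstream probe were -2.35, -2.85, -2.80 and -2.01 in the sham kidneys, -0.83, -1.71, -0.91 and -1.66 at day 3 and -2.88, -2.36, -0.86 and -3.05 at day 7. The day 3 kidneys lay above all sham kidneys, of which replicate 3 was not well above background, and 3 of the 4 day 7 kidneys lay back in or below the sham range. The upstream probe rose by 1.23 ± 0.43 (SE) day 3 against sham, a 2.34-fold difference (limma adjusted p 0.0282), and the difference was 1.27, 1.61 and 1.09 within the 3 slides. The call was lost when sham replicate 2 (limma adjusted p 0.0651), sham replicate 3 (0.0674), day 3 replicate 1 (0.0764) or day 3 replicate 3 (0.0695) was left out. Under the normexp setting, with its offset and quantile normalization, the difference was 0.49 (limma adjusted p 0.0265).

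Day 7 replicate 3 stood far above the other day 7 kidneys on the upstream Ptger3 probe. With it, the difference day 7 against day 3 was -1.01 ± 0.43 (limma adjusted p 0.0912), and without it -1.49 (limma adjusted p 0.00535). The difference from sham at day 7 was 0.22 ± 0.43 (limma adjusted p 0.771), and -0.26 without that kidney.

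The downstream Ptger3 probe did not pass the test in any comparison. Its log2 levels were -2.02, -2.32, -1.89 and -2.25 in the sham kidneys, -1.35, -2.16, -1.89 and -1.74 at day 3 and -2.46, -1.93, -1.21 and -3.16 at day 7. The groups overlapped, and day 7 replicate 3 was again the highest of its group. The difference day 3 against sham was 0.34 ± 0.34 (SE, limma adjusted p 0.415). Transcripts of Ptger3 are known to differ at their 3′ ends, and the transcripts each probe detects were not analysed here. The log2 gap between the probes, upstream minus downstream, was -0.38 ± 0.48 (SD, n = 4) in sham, 0.51 ± 0.37 at day 3 and -0.10 ± 0.39 at day 7. It was 0.89 higher at day 3 than in sham (exact permutation test, two-sided p 0.0571, 0.214 after adjustment over the 6 gaps tested for genes with 2 probes, of which the Ptgs1 gaps are not reported because its second probe was dim). The smallest p that 4 arrays against 4 allow is 0.0286, so a single gap could not pass after that adjustment, and whether the probes disagree is not settled by this test.

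The markers of the thick ascending limb moved against the upstream Ptger3 probe at day 3. All 4 (Slc12a1, Umod, Cldn16 and Kcnj1) were lower day 3 against sham, with a summed level between 5.66 and 6.05 in sham, between 1.31 and 2.84 at day 3 and between 4.70 and 5.23 at day 7. Their part in the Ptger3 result was not tested.

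Ptger1 passed the test day 7 against day 3 only. Its log2 levels were -0.59, -0.96, 0.32 and -0.43 in the sham kidneys, -0.58, -0.89, -1.33 and -0.90 at day 3 and 0.12, 0.03, -0.14 and -0.46 at day 7. All day 7 kidneys lay above all day 3 kidneys, and the sham kidneys overlapped both groups. The difference day 7 against day 3 was 0.82 ± 0.26 (SE), 1.76-fold (limma adjusted p 0.0333), and 1.36, 0.61 and 0.73 within the 3 slides. This call lay close to the threshold: the adjusted p was 0.0514 with no filter on dim probes and 0.0662 with the slide as a block, and the call was lost in 6 of the 12 fits that left out 1 kidney (limma adjusted p up to 0.0806), namely without day 3 replicate 2, 3 or 4 or day 7 replicate 1, 2 or 3. Day 3 against sham the difference was -0.51 ± 0.26 (limma adjusted p 0.11) and -0.70 without sham replicate 2 (limma adjusted p 0.0358). Day 7 against sham it was 0.30 ± 0.26 (limma adjusted p 0.447). The Ptger1 probe lies at chr19:26160729-26160788 on rn4 and is named from the array's own symbol, since its accession was not in the RefSeq table used.

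Ptger2 and Ptger4, the receptors that raise cyclic AMP, were too dim to test. Ptger2 (probe at chr15:20889441-20889500) was well above background on 1 array, a day 3 kidney with 41.3 intensity units, and the other unscaled signals ranged from 4.21 to 6.38 (sham), 8.91 to 25.9 (day 3) and 6.49 to 24.2 units (day 7). Ptger4 (probe at chr2:54423296-54423355) was well above background on 1 sham array with 29.0 units, and its other signals ranged from 7.69 to 19.4 (sham), 15.0 to 29.7 (day 3) and 11.9 to 25.7 units (day 7). On the other arrays neither was well above background.

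Ptgfr encodes the receptor of prostaglandin F2-alpha and was dim but measured, on 11 of the 12 arrays. Ptgfr levels (log2) were -3.77, -3.13, -2.27 and -3.20 in the sham kidneys, -3.68, -3.76, -3.40 and -3.56 at day 3 and -3.07, -3.34, -3.45 and -2.63 at day 7. The 3 groups overlapped. The difference was -0.51 ± 0.28 (SE) day 3 against sham (limma adjusted p 0.141), which became -0.73 without sham replicate 1 (limma adjusted p 0.0347). It was -0.03 ± 0.28 day 7 against sham (limma adjusted p 0.952) and 0.48 ± 0.28 day 7 against day 3 (limma adjusted p 0.209). Its probe has no place on an assembled chromosome of rn4, and the Ptgds probe covers chr3:3633310-3633779.

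Day 3 had the lowest group mean for Ptges, Ptgds, Ptger1 and Ptgfr and the highest for both Ptger3 probes, while sham had the lowest for Hpgd and the first Ptgs1 probe. For Ptges and Hpgd, sham and day 3 were neighbours whose difference did not pass the test, and day 7 stood apart from both. For the first Ptgs1 probe, Ptgds and Ptgfr, the difference between neighbours did not pass the test at any step.

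Genes with the profile nearest to each called member were taken from 11443 named probes that were above background on all 12 arrays, by the root mean square of the difference between centred log2 levels over the 12 arrays. Nearest to Ptges were Ppp2r2b (0.31), Cav1 (0.35) and Rnf186 (0.38). Nearest to Hpgd were Tspan1 (0.54), Grem1 (0.55) and Apoe (0.58), with differences day 7 minus sham of 1.51, 2.25 and 1.18. The upstream Ptger3 probe was nearest to Cyp20a1 (0.42), Mef2c (0.42) and Ptprj (0.43), and Ptger1 to Gtsf1l (0.20), Phf24 (0.23) and RT1-DOb (0.26). These distances are a description over arrays that share their group structure.

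The other genes of the pathway were taken from lists of phospholipases, synthases, receptors, transporters and leukotriene genes, with 34 probes of which 27 were tested. Day 3 against sham 8 of the 27 were called higher and 8 lower, where 24.5% and 32.0% of all probes were, with a median difference of -0.37. Day 7 against sham 3 were higher and 4 lower, where 8.05% and 10.3% of all probes were, with a median of 0.05. Day 7 against day 3 5 were higher and 5 lower, where 17.1% and 13.6% of all probes were, with a median of 0.23.

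Phospholipases release arachidonic acid from membranes. Of 6 tested, 1 rose and 3 fell day 3 against sham. Pla2g4a, the calcium-dependent cytosolic form that prefers arachidonate, rose by 1.04 ± 0.29 (SE, limma adjusted p 0.00896) and was 0.23 above sham at day 7 (limma adjusted p 0.626). Pla2g6, the calcium-independent form, fell by 2.30 ± 0.26 at day 3 (limma adjusted p 3.22e-05) and by 1.47 ± 0.26 at day 7 (limma adjusted p 0.00347). Pla2g4b and Pla2g12a also fell at day 3, by 1.36 and 0.81, and Pla2g12a by 0.69 at day 7. Day 7 against day 3, Pla2g10 (1.56) and Pla2g6 (0.83) were higher, and Pla2g4a (-0.82, limma adjusted p 0.0499) and Pla2g2a were lower. Pla2g2a was not well above background on any day 7 array and entered the test through its day 3 arrays, so its call (limma adjusted p 0.0352) follows in part from the filter. It was at least 1.29-fold higher at day 3, a bound set by the lowest signal well above background on each array.

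Of the 6 other synthases tested, 4 rose day 3 against sham. Cbr1, a carbonyl reductase that can turn prostaglandin E2 into F2-alpha, rose by 1.32 at day 3 and by 1.49 ± 0.27 at day 7 (limma adjusted p 0.0039). Tbxas1, thromboxane synthase, rose by 1.09 and by 0.96 ± 0.24 (limma adjusted p 0.0178 at day 7). Ptges3, a cytosolic E synthase that is also the Hsp90 partner p23, rose by 1.09 ± 0.16 at day 3 and was lower day 7 against day 3 (-0.75, limma adjusted p 0.00672), where Ptges was higher. Ptgis, prostacyclin synthase, was not well above background on any sham array and entered the test through its day 3 arrays, so its call (limma adjusted p 0.0173) follows in part from the filter. It was at least 1.21-fold higher at day 3.

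Of the 5 other receptor probes tested, 1 rose and 2 fell day 3 against sham. Ptgfrn, a partner protein of the F2-alpha receptor, rose by 2.21 ± 0.20 at day 3 (limma adjusted p 1.03e-05) and by 0.96 at day 7, and fell by 1.25 day 7 against day 3. Ptgir, the prostacyclin receptor, fell by 1.27 ± 0.20 at day 3 and was higher day 7 against day 3 (0.65). One probe of Ptgdr, a receptor of prostaglandin D2, fell by 1.38 at day 3 and by 0.58 at day 7 and was higher day 7 against day 3 (0.80). The array lists this and 2 dimmer probes under a Ptgdr-like name, so its identity is uncertain. Of the transport and breakdown probes, Slco2a1, the uptake transporter that brings prostaglandins to Hpgd, fell by 1.14 ± 0.16 at day 3 and by 0.84 ± 0.16 at day 7 (limma adjusted p 0.00592), so it was lower at day 7 while Hpgd was higher. Ptgr1, which acts after Hpgd, fell by 0.79 at day 3, and 1 of 2 probes of Abcc4, an export pump, rose by 0.68.

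**Figure D4:**
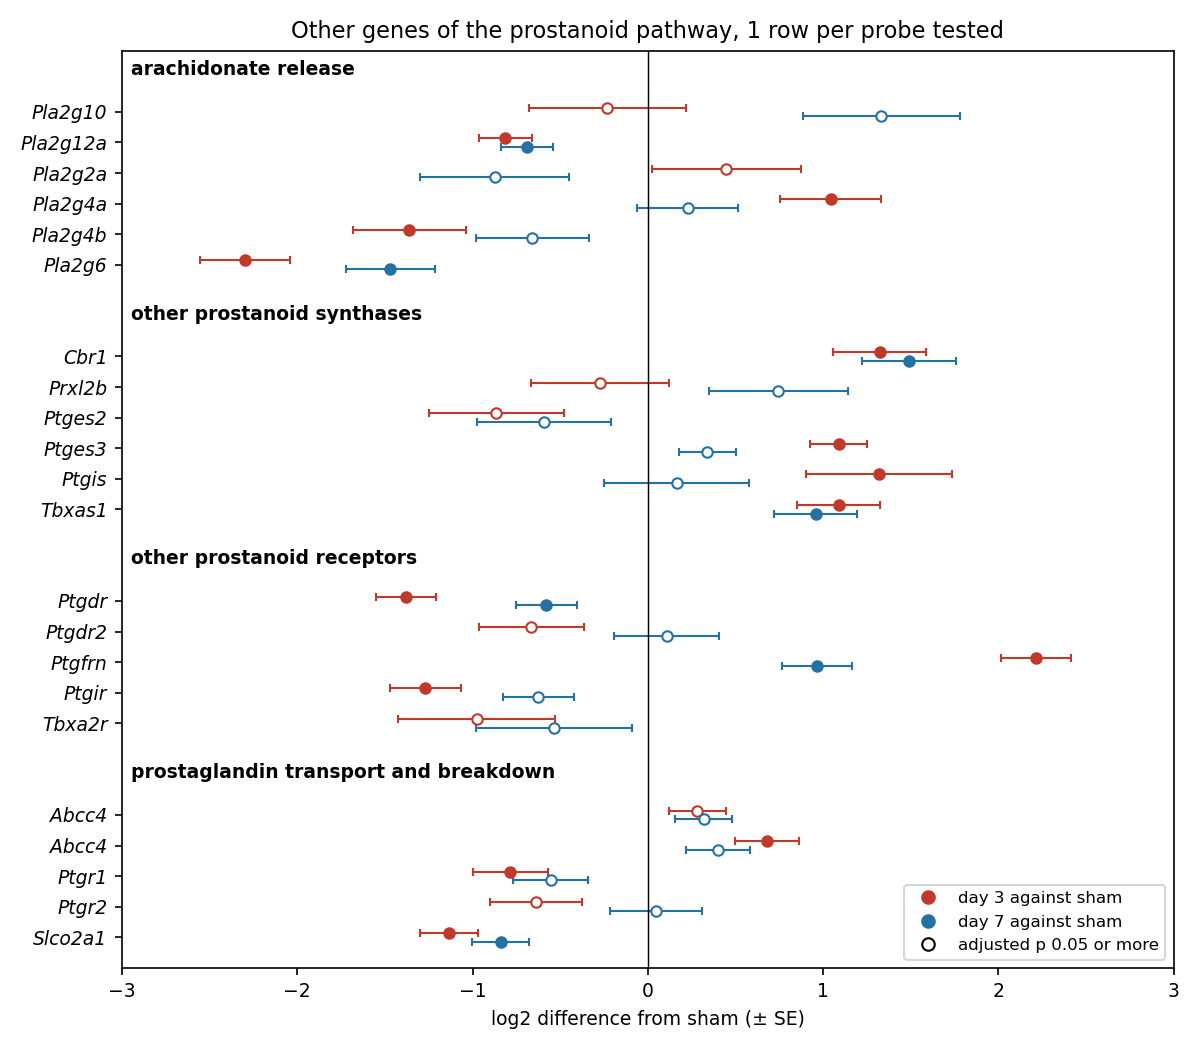
Differences from sham (log2, horizontal axis, with SE) of the other pathway genes apart from the leukotriene branch, 1 row per probe tested, at day 3 (red) and day 7 (blue), with open points for adjusted p of 0.05 or more. Filled points to the left are the phospholipases Pla2g6, Pla2g4b and Pla2g12a, the receptors Ptgdr and Ptgir, Ptgr1 and Slco2a1, and Ptgfrn (2.21 at day 3) lies farthest to the right.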

How the data were processed

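Total RNA of 12 left kidneys was labelled with Cy3 and read on Agilent rat arrays, per the labels. The labelling kit the labels name is one for DNA. The deposited spot intensity (background-subtracted processed signal) and the detection and outlier flags (other values) came from Agilent Feature Extraction 9.5.1.1, per the file headers. The authors' log2 value table was also deposited; it is centred on each probe's median (largest median 4.8e-07), its scaling is unstated, and its columns correlated with the values remade here at 0.998 or more (column medians -0.21 to 0.30).

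From 42877 non-control spots, outlier spots were set aside and spots averaged to 30367 probes. The log2 intensity minus the array's 75th percentile was fitted with limma 3.58.1 in R 4.3.3 (lmFit, eBayes, 3 group means, all 12 arrays), on 21071 probes well above background on all 4 arrays of a group, with Benjamini-Hochberg adjustment at 0.05. The method was also run on simulated data in which far fewer probes changed than were called here, so that run does not measure the error rate of these calls. The precision is limited by 4 arrays per group. No member probe was saturated. Members and lists were chosen with earlier results of these data known. Named are all members, each pathway gene that was called, and the 3 named genes nearest each called member. The alternatives were other background corrections, scalings and filters, the authors' table, 1 probe per gene, the compared groups alone, slide, scan or replicate number as a block, and leaving out each array. Replicate numbers did not pair the samples (12 same-number pairs, correlations -0.337 to 0.193). Exact permutation tests used SciPy. Exons and UTRs of the probes were not annotated here.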

Additional observations from a re-analysis of the deposited data

Results flagged for a closer look

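Of the 36 groups of 4 values (12 member probes in 3 groups), 3 held a kidney that stood apart from the other 3 by Dixon's criterion, which chance exceeds in about 1 in 20 groups. Sham replicate 4 had a Hpgd level of -0.95, while the other sham kidneys lay between -2.29 and -2.23, and without it the difference day 7 against sham was 2.54 in place of 2.21. Day 7 replicate 2 had a level of -2.48 on the first Ptgs1 probe, while the other day 7 kidneys lay between -1.48 and -1.31, and without it the difference day 7 against sham was 0.99 (limma adjusted p 0.0837). Sham replicate 3 had a level of -5.28 on the second Ptgs1 probe, where no sham array was well above background, so this value has no measured level behind it.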

How the results depend on the processing

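The rise of Ptges and Hpgd at day 7, against sham and against day 3, kept its direction and its call in all 96 values under the 24 other settings, 12 of which left out 1 kidney. The difference day 7 against sham ranged from 0.997 to 1.57 for Ptges and from 1.16 to 2.54 for Hpgd. Of the member probes, 2 passed the test day 3 against sham with no filter on dim probes (one being the second Ptgs1 probe, which no sham array measured above background), and 0 (by limma) among the 6 above background on all 12 arrays, a setting that leaves out the upstream Ptger3 probe. Leaving out 1 kidney gave 0 to 3 member calls day 3 against sham, with 2 without sham replicate 1, 3 without sham replicate 2, and 0 without sham replicate 3 or day 3 replicate 1. Pathway calls day 7 against sham numbered 11 under the normexp setting, with its offset and quantile normalization, against 7. Pathway calls day 7 against day 3 fell from 10 to 6 with no filter, and lay between 3 and 11 when 1 kidney was left out (3 without day 3 replicate 4, 4 without day 7 replicate 4, 5 without day 3 replicate 2 or day 7 replicate 1, and 6 without day 3 replicate 1). With the replicate number as a block, though the numbers did not pair the samples (3 of 12 correlated best with their own number), 5 pathway probes were called day 7 against day 3, and the Ptger1 call day 7 against day 3 was lost (limma adjusted p 0.0638). The cause of these changes was not tested.

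Among the member probes, signs turned only for differences that had not passed the test. Day 7 against sham, Ptgds became 0.21 with total-signal scaling, 0.045 with quantile normalization, 0.055 in the authors' table, 0.15 with slide and 0.16 with scan as a block; the downstream Ptger3 probe became 0.17 with total-signal scaling, 0.0083 in the authors' table and 0.031 with slide as a block; Ptgfr became 0.20, 0.041 and 0.045 with total-signal scaling, quantile normalization and the authors' table. Leaving out 1 kidney gave ranges of -0.40 to 0.25 for Ptgds, -0.40 to 0.25 for the downstream and -0.26 to 0.47 for the upstream Ptger3 probe, and -0.26 to 0.24 for Ptgfr. Day 3 against sham it gave -0.12 to 0.41 for the first Ptgs1 probe and -0.013 to 0.61 for Hpgd. Signal over background limits Ptgs2, Ptger2, Ptger4 and the second Ptgs1 probe, which were tested only where the filter was dropped.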

Other observations

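Arachidonic acid can also go to the lipoxygenases, which lead to the leukotrienes. Of 8 genes of that branch, 5 were bright enough to test. Lta4h, the hydrolase that makes leukotriene B4, was higher day 3 against sham by 0.81 ± 0.17 (SE, limma adjusted p 0.00188) and lower day 7 against day 3 (-0.52, limma adjusted p 0.0378). Ltc4s, the synthase of leukotriene C4, went the other way, with -0.96 ± 0.14 day 3 against sham (limma adjusted p 0.00018) and 0.53 day 7 against day 3 (limma adjusted p 0.0177). Alox5ap, the partner protein of 5-lipoxygenase, differed by 0.20 ± 0.28 day 3 against sham (limma adjusted p 0.546). Alox5, Alox15 and Cysltr1 were too dim to test.

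The upstream and downstream Ptger3 probes shared their highest day 7 kidney, replicate 3, at -0.86 and -1.21, while the other day 7 kidneys lay between -3.05 and -2.36 on the upstream and between -3.16 and -1.93 on the downstream probe. Sham replicate 4 was the highest sham kidney for Ptges (0.77), Ptgds (0.81) and Hpgd (-0.95), and day 3 replicate 3 was the highest day 3 kidney for Ptgds (-0.09) and Hpgd (-0.77) and the lowest for Ptges (-0.38).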
